A study of Triticum aestivum with 12 samples.

Results

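The flag leaf transcriptome was compared between AAC Concord and AAC Magnet, modern Canadian bread wheats (Triticum aestivum) taken as the pair of the series with low β-diketone wax. The paper describes the other pair, AAC Starbuck and AAC Tradition, as only slightly higher in it. Its wax measurements of the 4 varieties gave no significant difference in β-diketones. The comparison used 6 of the 12 libraries of the series, 3 of each variety, and 40615 of the 107411 genes of the table. These were the genes with a normalized count of at least 10 in at least 3 of the 6 libraries, and 70249 genes were above 0 in at least 1 of them. The study sequenced RNA of the flag leaf, the uppermost leaf below the ear, in 4 varieties that all carry the treatment label Control, without drought. AAC Concord was bred for the Western ecozone from crosses that included Lillian and Journey, and AAC Magnet for the Eastern ecozone from crosses that included McKenzie, Lars and Alsen. Field plots are given in the sample labels, whereas the paper gives a greenhouse and leaves taken at flowering, with the same wording for both varieties. The expression values cannot settle which holds. The labels number the replicates without saying which plot or pot each came from. The p-values thus measure the spread between libraries of the same variety, taken over all 12 in the fit, which may be partly technical.

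Bread wheat is a hexaploid whose A, B and D subgenomes come from different wild grasses, so a gene often has counterparts, its homoeologues, on the matching chromosomes of the other subgenomes. The flag leaf supplies much of the sugar for grain filling and is coated by cuticular waxes made from very-long-chain fatty acids. Fatty acyl reductases (FAR) turn these into primary alcohols and CER1 proteins take part in making alkanes. The enzymes of the W1 locus, a polyketide synthase (DKP), a hydrolase (DMH) and cytochromes P450, make β-diketones and their hydroxylated forms. An identifier such as TraesCS3D02G517400 gives the chromosome (3D) and, in its last digits, the order along it, under version 1.1 of the wheat reference annotation. The RefSeq table at hand, with 155467 genes, uses other identifiers (0 matched), so roles are given for the wax genes alone, sequences are not printed, and markers of leaf tissue were not checked.

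The values of a library summed to 5546261 to 5853118 normalized counts in AAC Concord and to 5190233 to 5362305 in AAC Magnet. Low values rose in steps, and with a step read as 1 read the depth was 5912212 to 7096298 reads in AAC Concord and 4483171 to 5836279 in AAC Magnet. The AAC Concord libraries were thus all the deeper ones, and the part of depth in the differences below was not tested. With counting error alone, a gene listed at 0 may still have had 3 reads, which are worth 2.47 to 2.81 normalized counts in an AAC Concord library and 2.67 to 3.58 in an AAC Magnet library. Libraries of the same variety lay closer to each other than to those of the other variety. The root mean square difference on the log2 scale was 0.573 to 0.582 within AAC Concord, 0.518 to 0.575 within AAC Magnet and 0.945 to 1.11 between them.

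A single library stood apart on a single chromosome. In AAC Concord replicate 1 the 2203 tested genes of 2D had a median log2 difference of -0.87 from the other AAC Concord libraries, and 95.8% of them were lower. For the other chromosomes of that library, and for all chromosomes of the 9 libraries of the other varieties and the other chromosomes of AAC Concord replicates 2 and 3, the same median lay between -0.03 and 0.06. The lower level was thus common to the genes of 2D in this library. The numbers of DEGs on 2D and its tested named genes are given with and without it.

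AAC Concord and AAC Magnet differed in 3687 genes, 9.08% of those tested. A gene was called differentially expressed (DEG) when limma on log2(normalized count + 1) gave a Benjamini-Hochberg adjusted p under 0.05 and the log2 fold change was beyond 1 or -1. All fold changes are AAC Concord relative to AAC Magnet on that scale, which understates the change of low genes. AAC Concord had the higher level in 1763 of them (4.34% of genes tested) and the lower in 1924 (4.74%). Scaling all libraries to a common total, which moved the median log2 fold change of all genes from -0.01 to -0.12, gave 1486 higher and 2383 lower. Without the limit on the fold change 5950 genes (14.6%) passed, so 2263 genes passed with a change of 2-fold or less. The 3 libraries of each variety did not overlap in 3659 of the DEGs, against 33.4% of all genes tested, a count that the call itself largely fixes.

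Most of the differences were moderate. The log2 fold change lay between 1 and 2 in size in 2223 DEGs (60.3%), between 2 and 4 in 994 (27.0%), and above 4 in 470 (12.7%). The median was 1.67 among the genes higher in AAC Concord and -1.73 among the lower ones. With the genes in 5 equal classes by their mean, 14.4% were DEGs in the lowest class, up to 19.9 normalized counts, against 6.17% and 7.36% in the highest 2 classes. Low genes could enter the test through 1 variety, which leans towards a difference there. Requiring at least 10 normalized counts in all 6 libraries, a setting chosen after the data were seen, left 1766 DEGs among 33105 genes, and a mean of at least 50 left 1488 among 20771. Of the 100 genes with the highest mean, 22 were DEGs, and all DEGs together took 10.5% to 13.2% of the total in AAC Concord libraries and 9.36% to 9.55% in AAC Magnet libraries.

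Of the 39 wax genes listed in the study, 1 was a DEG, an alkane pathway gene lower in AAC Concord. The list was chosen with earlier results of these data known, 23 of its genes were above 0 in at least 1 of the 6 libraries, and 9 passed the filter. With 9.08% of all genes called, 1 of 9 sets the list in no way apart. TraesCS6B02G255100, a B copy of TaCER1-6A, had 9.15, 4.82 and 3.46 normalized counts in AAC Concord and 51.1, 57.1 and 41.6 in AAC Magnet. All 3 AAC Magnet libraries stood above all 3 of AAC Concord. Its log2 fold change was -2.98 (standard error 0.39, limma adjusted p = 0.000425), and it was called with each library left out in turn. Its homoeologues did not pass the filter. TraesCS6A02G226500, near the value of 3 reads, averaged 1.16 ± 1.01 (SD, n = 3) in AAC Concord and 2.70 ± 0.778 in AAC Magnet. TraesCS6D02G208500 varied between libraries, at 0, 6.49 and 0 in AAC Concord and at 2.82, 12.2 and 0.823 in AAC Magnet, with overlap. Whether the homoeologues differ from each other in their fold change was not tested.

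The other CER1 group, TaCER1-1, was at similar values in the varieties. TraesCS1A02G150900 had 359, 388 and 222 normalized counts in AAC Concord and 379, 332 and 200.1 in AAC Magnet, a log2 fold change of 0.10 with a 95% interval of -0.58 to 0.78 (limma adjusted p = 0.878). TraesCS1B02G168500 had 427, 664 and 336 against 543, 388 and 332, with 0.15 and an interval of -0.66 to 0.95 (adjusted p = 0.839). The D copy TraesCS1D02G147900 did not pass the filter, at 5.55 ± 2.54 in AAC Concord and 2.14 ± 1.15 in AAC Magnet. The intervals of the A and B copies exclude a 2-fold change but not a smaller one, and their signs turned with single libraries left out.

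In the alcohol pathway the homoeologues of TaFAR4, a fatty acyl reductase, did not pass the test. TraesCS4D02G356300 had 100.4, 108 and 105 normalized counts in AAC Concord and 78.6, 96.7 and 76.5 in AAC Magnet. The libraries did not overlap, yet the log2 fold change was 0.32 with a 95% interval of -0.19 to 0.82 (limma adjusted p = 0.408). For TraesCS4B02G363100 it was 0.14 (-0.55 to 0.82, adjusted p = 0.826) and for TraesCS5A02G531300 it was -0.38 (-1.06 to 0.30, adjusted p = 0.467), both with overlapping libraries. A TaFAR5 gene below the filter, TraesCS4B02G006800, was at 0 in the AAC Concord libraries and at 7.33, 7.16 and 5.33 in those of AAC Magnet. That is at least 2.49-fold lower in AAC Concord, taking 3 reads per library as its limit, and the gene was called when no filter was applied (log2 fold change -2.92, limma adjusted p = 0.00287). The TaFAR2 gene TraesCS4A02G388600, also below the filter, had 8.52, 4.11 and 10.5 in AAC Concord and 3.17, 0 and 4.49 in AAC Magnet, with overlap. The TaFAR1 and TaFAR3 genes were at 0 in the 6 libraries.

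In the diketone pathway, none of the 21 genes of the W1 clusters on 2B and 2D was a DEG, and 3 of them, all polyketide synthase (DKP) genes, passed the filter. At the 9.08% of all genes tested, 0 of 3 is a count near the background. TraesCS2B02G006700 had 52.5, 21.5 and 7.99 normalized counts in AAC Concord and 2.1, 15.5 and 0 in AAC Magnet. TraesCS2B02G006800 had 46.9, 26.4 and 5.33 against 0, 10.7 and 0. In both genes the lowest AAC Concord library, replicate 3, fell below the highest AAC Magnet library, replicate 2, so the groups overlapped. Their log2 fold changes were 2.57 (95% interval -0.33 to 5.48, limma adjusted p = 0.232) and 3.16 (0.49 to 5.82, adjusted p = 0.111). The second was the 1 of the 3 tested W1 genes with an unadjusted limma p under 0.05. Among all 40615 genes tested, 11488 had such a p, so this does not set the gene apart. The call on TraesCS2B02G006800 depended on single libraries. Without AAC Magnet replicate 2, the highest of its variety, the log2 fold change became 4.34 and passed (limma adjusted p = 0.038). Without AAC Concord replicate 1 it fell to 2.53 (adjusted p = 0.277), and with no filter the adjusted p was 0.163. With the replicate number added as a term of the fit it passed (limma adjusted p = 0.0427).

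The third DKP gene, TraesCS2D02G016100 on 2D, had 55.3, 153 and 90.5 normalized counts in AAC Concord and 116, 132 and 32.9 in AAC Magnet. The varieties overlapped and its log2 fold change was 0.19 (95% interval -1.64 to 2.03, adjusted p = 0.911), and 0.55 without AAC Concord replicate 1, the library low on 2D. The DKP gene TraesCS2B02G006300, below the filter, had 13.1, 8.25 and 1.77 against 1.05, 10.7 and 0, again with overlap. Of all W1 genes, 11 were above 0 in AAC Concord and 7 in AAC Magnet. Those above 0 in AAC Concord alone were each seen in 1 library, at about 1 to 7 reads. The AAC Concord libraries were the deeper ones, so this count alone does not show wider expression there, and the part of depth in it was not tested. Over all genes, 58880 to 60981 were above 0 in an AAC Concord library and 58024 to 59109 in an AAC Magnet library. The DMH gene TraesCS2B02G006500 was seen in 1 AAC Concord library, at 6.57, and in no AAC Magnet library. Of the P450 genes, TraesCS2D02G016000 was highest, at 2.48 in AAC Concord replicate 2 and 1.19 in AAC Magnet replicate 2, values of about 3 reads and fewer. For comparison, TraesCS2B02G006800 averaged 276 ± 63.6 in AAC Starbuck and 139 ± 111 in AAC Tradition. The AAC Tradition libraries were at 207, 199.6 and 11.1, the last within the range of AAC Concord. The plot of tested wax genes shows the 9 genes side by side.

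**Figure D1:**
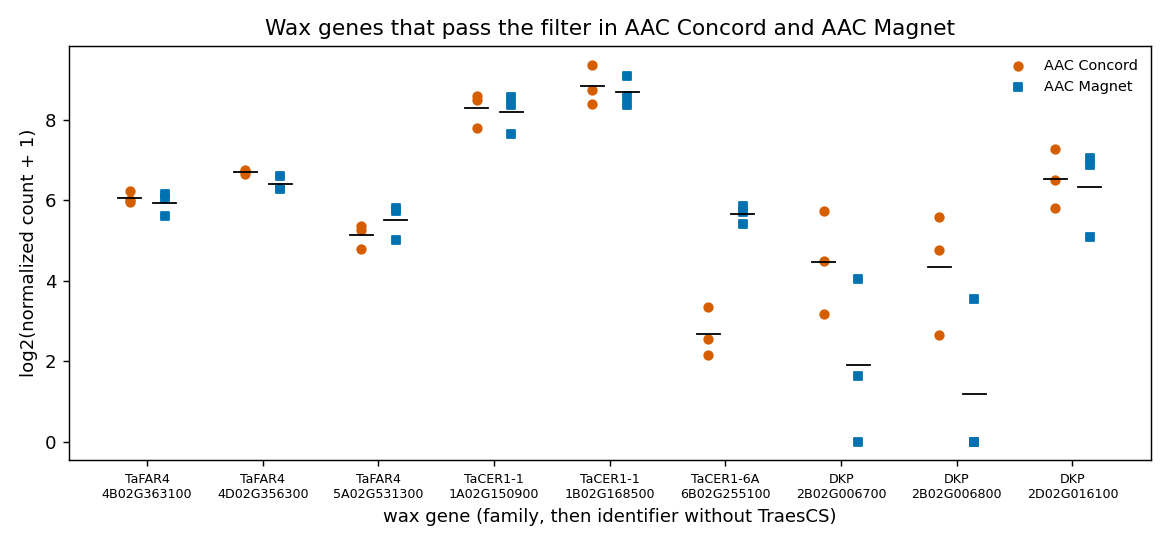
Levels of the 9 wax genes that pass the filter, as log2(normalized count + 1), in the 3 libraries of AAC Concord (circles) and of AAC Magnet (squares), with the mean of each as a bar. The TaCER1-6A gene on 6B is the one gene called, at 3.46 to 9.15 normalized counts in AAC Concord and 41.6 to 57.1 in AAC Magnet, while the DKP genes on 2B spread widely within each variety.

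The DEGs were spread over all 21 chromosomes but were densest on the B subgenome. The B chromosomes held 1446 DEGs among 13231 genes tested (10.9%), the A chromosomes 1107 among 13366 (8.28%) and the D chromosomes 1038 among 13542 (7.67%), against 9.08% of all genes. The B chromosome had the highest share in 4 of the 7 homoeologous groups, the A chromosome in 2 and the D chromosome in 1. By chromosome the share ran from 5.22% on 4D to 14.9% on 2B and 14.1% on 6B, followed by 1B (11.8%), 1A (10.8%) and 3D (10.4%). Genes not placed on a chromosome (U) had 20.2%, 96 of 476. These shares are a description with no test between subgenomes.

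The direction also varied by chromosome. On A chromosomes 571 DEGs were higher and 536 lower in AAC Concord, on B chromosomes 691 and 755, and on D chromosomes 457 and 581. On 3D, 70 were higher and 150 lower, while the median log2 fold change of all its tested genes was -0.01, and without AAC Concord replicate 1 the numbers were 55 and 146. On 2D, 53 were higher and 139 lower, but here the whole chromosome was shifted. Its median log2 fold change over all tested genes was -0.28, with 1646 of 2203 below 0, against -0.01 to 0.03 on each other chromosome. Without AAC Concord replicate 1 the median of 2D was 0.02, and 81 DEGs were higher and 59 lower, so the direction on 2D rests on that library. The subgenome counts without it were 488 higher and 559 lower on A, which turns the balance there, 626 and 741 on B, and 424 and 482 on D. The balance on A also turned without AAC Concord replicate 2 (415 and 461), and that on B without AAC Magnet replicate 2 (682 and 673). Without AAC Concord replicate 1 the shares of DEGs kept their order, at 10.3% on B, 7.83% on A and 6.69% on D. With all libraries, 1A had 105 higher and 81 lower, and 5A had 90 and 63.

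**Figure D2:**
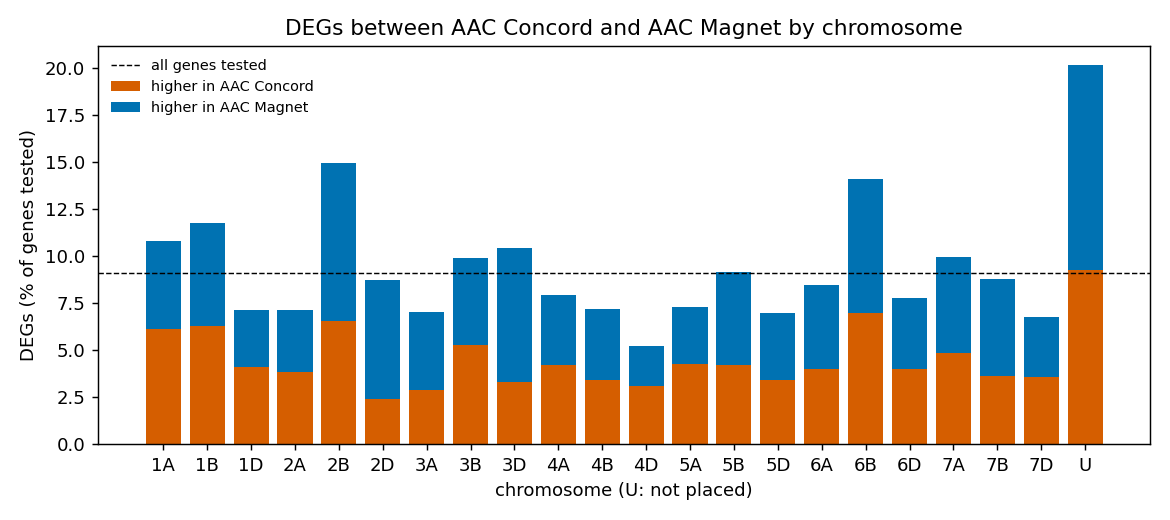
Share of tested genes that were DEGs on each chromosome (vertical axis, percent), split into genes higher in AAC Concord (lower part of each bar) and higher in AAC Magnet (upper part), with the 9.08% of all genes tested as a dashed line. The shares of 2B (14.9%), 6B (14.1%) and the unplaced genes (20.2%) stand highest, and 2D and 3D are made up mostly of genes higher in AAC Magnet, on 2D with AAC Concord replicate 1, which was low along that chromosome.

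Along the chromosomes the DEGs lay towards the ends. With the genes of each chromosome listed in order and divided into 5 equal stretches, 12.7% of genes tested in the first stretch and 13.9% in the last were DEGs, against 6.68%, 6.21% and 7.99% in those between. In the last stretch, 378 were higher and 492 lower in AAC Concord. Neighbouring genes tended to share a direction. Of the 3587 DEGs followed by another tested gene on their chromosome, 715 (19.9%) were followed by a DEG, and 525 of these pairs (73.4%) had the same direction.

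Part of the DEGs stood in dense blocks. Windows of 50 consecutive tested genes with at least 40% DEGs joined into 11 blocks on 2B, 3B, 3D, 4A, 6B, 7A and 7B. These held 374 DEGs, 10.1% of all, among 811 tested genes, 2.00% of all. Outside them 8.32% of genes tested were DEGs, of which 1641 were higher in AAC Concord and 1672 lower, and the B subgenome still had the highest share (9.62%, against 7.81% on A and 7.17% on D). The number of blocks depends on the definition, and a mean of at least 50 normalized counts left 1, on 3D. Blocks were chosen by DEGs between the same 6 libraries, so a lack of overlap between the varieties within them is partly brought about by that choice.

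The largest block lay at the end of 3D, from TraesCS3D02G500600 to TraesCS3D02G544700, and was low in AAC Concord. It held 130 tested genes, of which 76 (58.5%) were DEGs, 7 higher and 69 lower, and its densest window reached 78%. The median level of the 130 genes on the log2 scale was 4.50, 4.49 and 4.57 in the AAC Concord libraries and 5.59, 5.56 and 5.63 in those of AAC Magnet. The groups did not overlap, and 102 of the 130 genes had a log2 fold change below 0. AAC Starbuck, at 5.58, 5.68 and 5.46, and AAC Tradition, at 5.44, 5.34 and 5.48, stood with AAC Magnet. For 74 of the 76 DEGs the mean of AAC Starbuck was nearer to AAC Magnet than to AAC Concord, and for 64 that of AAC Tradition was. The median log2 fold change of all genes tested in the block was -1.22 and that of its lower DEGs -2.26.

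Within it, TraesCS3D02G517400 had the largest difference, at 0 in all AAC Concord libraries and at 628, 405 and 531 normalized counts in AAC Magnet. AAC Starbuck had 642, 586 and 632 and AAC Tradition 7.43, 12.9 and 13.3, so this gene set AAC Tradition apart as well. The last DEG of the block, TraesCS3D02G544700, was at 0, 0 and 1.77 in AAC Concord and at 13.6, 20.3 and 15.1 in AAC Magnet (log2 fold change -3.61, standard error 0.41, limma adjusted p = 0.000128). The first, TraesCS3D02G500600, went the other way, at 52.1, 74.8 and 71.8 against 26.3, 32.9 and 22.3 (1.25, standard error 0.28, adjusted p = 0.0115).

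The plot of windows along 4 chromosomes shows the 3D block beside those of 2B, 4A and 7B. On 2B the blocks lay at both ends, and most of their DEGs were lower in AAC Concord. At the start of 2B, from TraesCS2B02G001600 to TraesCS2B02G049700, 42 of 93 tested genes were DEGs, 11 higher and 31 lower, and the W1 genes lie within this stretch without being among them. TraesCS2B02G008100, close to the W1 genes in the order of identifiers, was at 0 in AAC Concord and at 111, 111 and 162 normalized counts in AAC Magnet. At the end of 2B, from TraesCS2B02G603600 to TraesCS2B02G628600, 34 of 66 were DEGs, 8 higher and 26 lower. The median level of those 66 genes was 4.61, 4.57 and 4.50 in AAC Concord and 5.39, 5.36 and 5.46 in AAC Magnet, without overlap. AAC Starbuck was nearer to AAC Magnet for 30 of the 34 and AAC Tradition for 32.

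**Figure D3:**
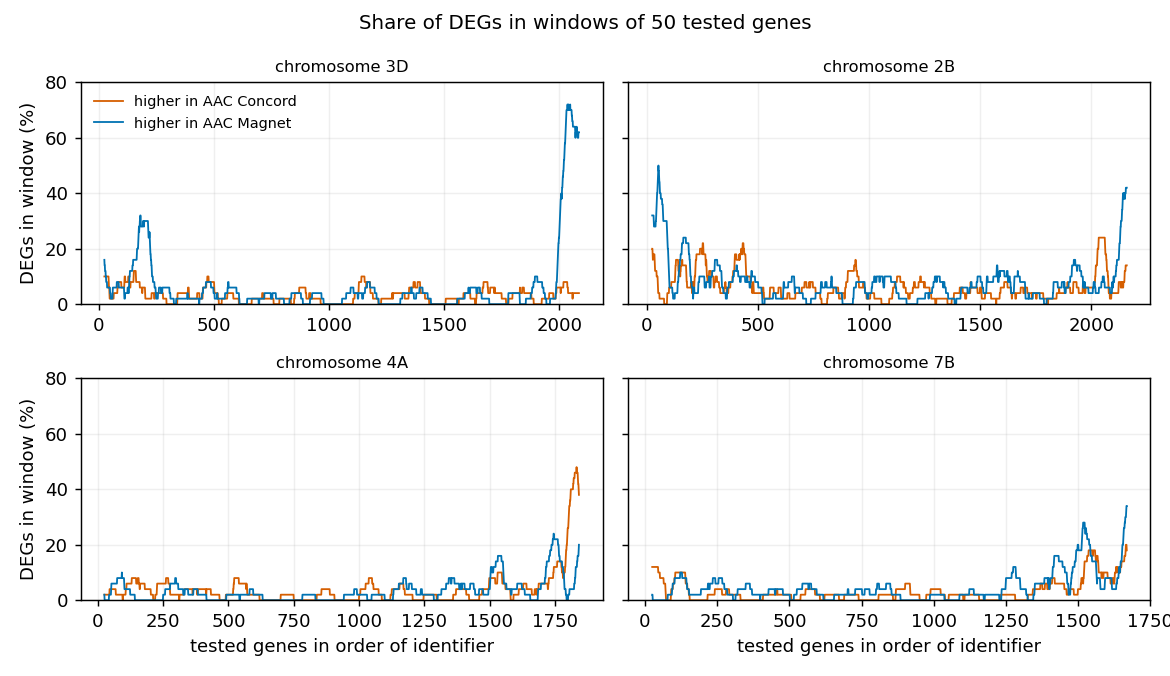
Share of DEGs (vertical axis, percent) in sliding windows of 50 tested genes ordered by identifier (horizontal axis, position in that order), for genes higher in AAC Concord and genes higher in AAC Magnet separately, on 3D, 2B, 4A and 7B. The end of 3D and both ends of 2B rise for genes higher in AAC Magnet, and the end of 4A for genes higher in AAC Concord.

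At the end of 4A the direction was the opposite. From TraesCS4A02G460100 to TraesCS4A02G499900, 35 of 84 tested genes were DEGs, 25 higher and 10 lower in AAC Concord. The median level was 5.28, 5.41 and 5.27 in AAC Concord and 5.14, 4.88 and 4.90 in AAC Magnet. AAC Starbuck was nearer to AAC Concord for 29 of the DEGs and AAC Tradition for 30, so here AAC Magnet was the variety apart. TraesCS4A02G460100 had 17.8, 15.7 and 15.97 normalized counts in AAC Concord and 1.05, 4.78 and 1.78 in AAC Magnet (log2 fold change 2.45, standard error 0.34, limma adjusted p = 0.00068). The largest difference of the block went the other way. TraesCS4A02G499800 was at 0 in AAC Concord and at 82.7, 131 and 72.9 in AAC Magnet, with AAC Starbuck at up to 3.19 and AAC Tradition at 0.

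The remaining blocks differed in which of the other varieties AAC Concord resembled. At the end of 7B, from TraesCS7B02G472500 to TraesCS7B02G500900, 27 of 50 tested genes were DEGs, and both AAC Starbuck (24 of 27) and AAC Tradition (26 of 27) were nearer to AAC Concord. At the end of 6B, from TraesCS6B02G455500 to TraesCS6B02G472900, the 22 DEGs divided the other varieties. There AAC Starbuck was nearer to AAC Magnet for 21, and AAC Tradition was nearer to AAC Concord for 21. On 3B, from TraesCS3B02G035800 to TraesCS3B02G080300, 39 of 89 genes were DEGs, 19 higher and 20 lower, with AAC Starbuck nearer to AAC Concord for 22 and AAC Tradition for 19. TraesCS3B02G039600 there had 6.57, 0.825 and 9.76 normalized counts in AAC Concord and 1056, 910 and 588 in AAC Magnet (log2 fold change -7.29, standard error 0.52, limma adjusted p = 2.57e-06).

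In the other 4 blocks most DEGs were lower in AAC Concord. Of all their tested genes, 51.6% to 60.0% had a log2 fold change below 0, depending on the block. On 6B, from TraesCS6B02G030900 to TraesCS6B02G066700, 31 of 75 genes were DEGs, 12 higher and 19 lower. TraesCS6B02G050900 there stood at 4.69, 4.95 and 3.55 in AAC Concord and at 156, 159 and 182 in AAC Magnet. Its AAC Starbuck libraries were at 117 to 125 and those of AAC Tradition at 4.97 to 14.4. In a second block of 7B 9 of 25 DEGs were higher, and in the 2 blocks of 7A it was 7 of 23 and 5 of 20. Over all 3687 DEGs AAC Starbuck was nearer to AAC Magnet for 2211 (60.0%) and AAC Tradition for 2056 (55.8%). These counts describe positions between 2 varieties chosen for their difference and carry no test.

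**Figure D4:**
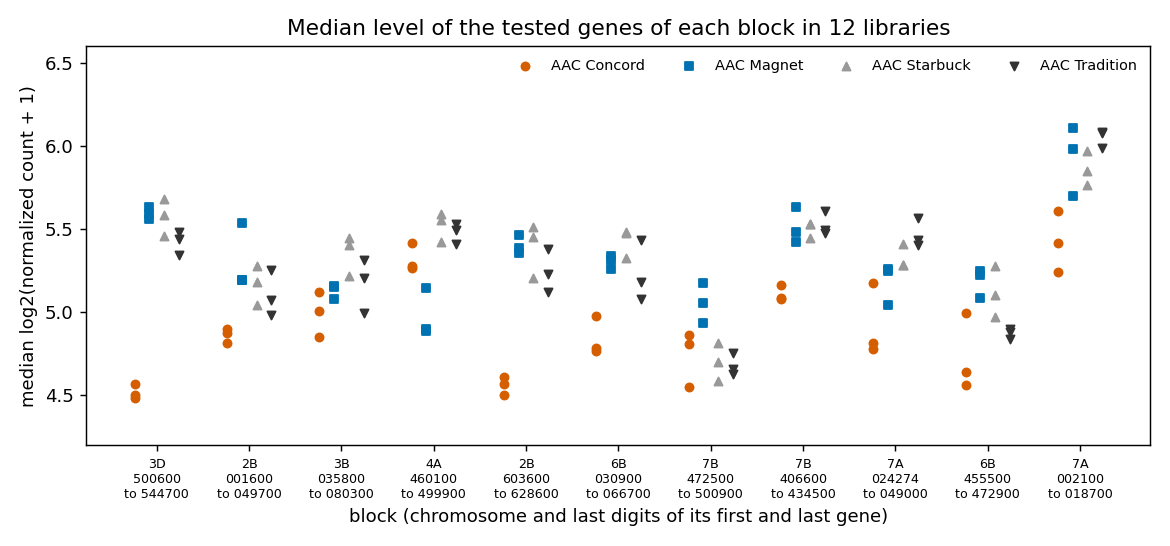
Median level of the tested genes of each of the 11 dense blocks, as log2(normalized count + 1) on an axis that does not start at 0, in the 3 libraries of each variety, with blocks in order of their number of DEGs and named by chromosome and the last digits of their first and last gene. AAC Concord stands below AAC Magnet without overlap in 8 of the 11 blocks, most widely in the 3D block (4.49 to 4.57 against 5.56 to 5.63) and at the end of 2B (4.50 to 4.61 against 5.36 to 5.46), above it without overlap on 4A (5.27 to 5.41 against 4.88 to 5.14), and the other 2 blocks overlap. Blocks were chosen by DEGs between these same libraries, which favours such separation, and it was not measured for other windows.

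Some genes were read in one variety and not at all in the other. At 0 in all 3 libraries of AAC Magnet and at 10 or more in all 3 of AAC Concord were 130 genes, and the reverse held for 161. All of them were DEGs, which the definition brings about. They lay mostly on the B subgenome, with 68 of the 130 and 83 of the 161 there, against 29 and 44 on A and 24 and 25 on D. As shares of the genes tested these were 0.51% and 0.63% on B, 0.22% and 0.33% on A, and 0.18% and 0.18% on D. Unplaced genes (U) had the highest share, with 9 of each kind, 1.89% of those tested. Blocks held 17 of the 130 genes on in AAC Concord, near the 10.1% of all DEGs that lay in blocks, and 50 of the 161 on in AAC Magnet. When off allowed up to 3 reads in each library, the numbers were 245 and 290, and when on required 50 or more, 28 and 41.

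The chromosomes of the 2 kinds differed in part. Genes on in AAC Concord were most numerous on 1B (16), 6B (15), 2B (11) and 3B (10), and genes on in AAC Magnet on 2B (22), 6B (17), 5B (14) and 7B (13). Of the 130 on in AAC Concord, 28 were off in both AAC Starbuck and AAC Tradition and 20 were on in both. Of the 161 on in AAC Magnet, 17 were off in both other varieties and 68 were on in both. These counts are a description with no test between the 2 kinds.

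Runs of such genes, picked out after their values were seen, lay on 7A and 2B. The 4 consecutive genes TraesCS7A02G007300 to TraesCS7A02G007600 were at 0 in every AAC Concord library. In AAC Magnet TraesCS7A02G007400 had 138, 177 and 113 normalized counts, and TraesCS7A02G007600 had 198, 149 and 174. AAC Starbuck and AAC Tradition read all 4, with TraesCS7A02G007600 at 130.2 to 184 and 122 to 146. On 2B, 7 of 28 listed genes from TraesCS2B02G042600 to TraesCS2B02G045300 were on in AAC Magnet and off in AAC Concord. The highest, TraesCS2B02G045300, had 67.1, 58.5 and 69.4 in AAC Magnet, 98.2 to 126 in AAC Starbuck and 31.8 to 71.9 in AAC Tradition.

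Among the 8 DEGs with the largest rise in AAC Concord, 7 were at 0 in all AAC Magnet libraries. TraesCS2D02G005000 had 530.2, 431 and 376 normalized counts in AAC Concord, at least 142-fold above the value of 3 reads per library in AAC Magnet (limma adjusted p = 0.00151). AAC Starbuck had 199, 9.34 and 0, so libraries of that variety differed widely for this gene. It lies on 2D and was also called without AAC Concord replicate 1 (log2 fold change 8.66, adjusted p = 0.00743). TraesCS1D02G403700 had 305, 232 and 251 in AAC Concord (at least 83.8-fold). It was at 0 or, in 1 AAC Starbuck library, at 2.08 in the other varieties. TraesCS3B02G014800, with 215, 201 and 335 (at least 79.9-fold), and TraesCSU02G153200, with 235, 244 and 199 (at least 72.2-fold), were at 0 in all libraries of the 3 other varieties.

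Others of these 8 genes were shared with a further variety. TraesCS1B02G448800 had 224, 241 and 195 normalized counts in AAC Concord and 113 to 154 in AAC Starbuck, with 0 in AAC Magnet and AAC Tradition. TraesCS3B02G364500 had 265, 145 and 184 and, in AAC Starbuck, 187 to 247, again with 0 in AAC Magnet and AAC Tradition. TraesCS7B02G474800 had 181, 329 and 132 and was missing in AAC Magnet alone, with 124 to 341 in AAC Starbuck and 246 to 379 in AAC Tradition. TraesCS1B02G170100 was the one of the 8 not at 0 throughout, at 951, 890 and 306 in AAC Concord and 1.05, 0 and 14.2 in AAC Magnet (log2 fold change 7.66, standard error 1.03, limma adjusted p = 0.000482).

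Of the 8 DEGs with the largest fall in AAC Concord, 6 were at 0 in all its libraries. The largest was an unplaced gene, TraesCSU02G060600, at 1822, 1665 and 1545 normalized counts in AAC Magnet, at least 633-fold below in AAC Concord (limma adjusted p = 1.46e-12). It was at 0 in AAC Starbuck and at 1300.0 to 1412 in AAC Tradition. TraesCSU02G066200, at 687, 599 and 536 in AAC Magnet (at least 229-fold), had the opposite pattern in the others, with 738 to 834 in AAC Starbuck and 0 in AAC Tradition. TraesCS4A02G447600, at 303, 328 and 263 (at least 112-fold), was likewise on in AAC Starbuck and near 0 in AAC Tradition.

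TraesCS5D02G537600, at 256, 274 and 315 normalized counts (at least 106-fold), was read in AAC Magnet alone, with 0 in the 9 other libraries. TraesCSU02G147500, at 263, 247 and 253, was also read in AAC Magnet with 1 AAC Concord library at 0.823. TraesCS7A02G039900 and TraesCS3B02G581300 were instead missing in AAC Concord alone. The former was at 0, 0.825 and 0.886 in AAC Concord and 611, 515 and 425 in AAC Magnet (log2 fold change -8.41, standard error 0.27, limma adjusted p = 2.41e-09), and at 477 or more in AAC Starbuck and AAC Tradition. The latter was at 192, 204 and 198 in AAC Magnet (at least 74.7-fold), with 159.8 to 201 in the other pair.

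**Figure D5:**
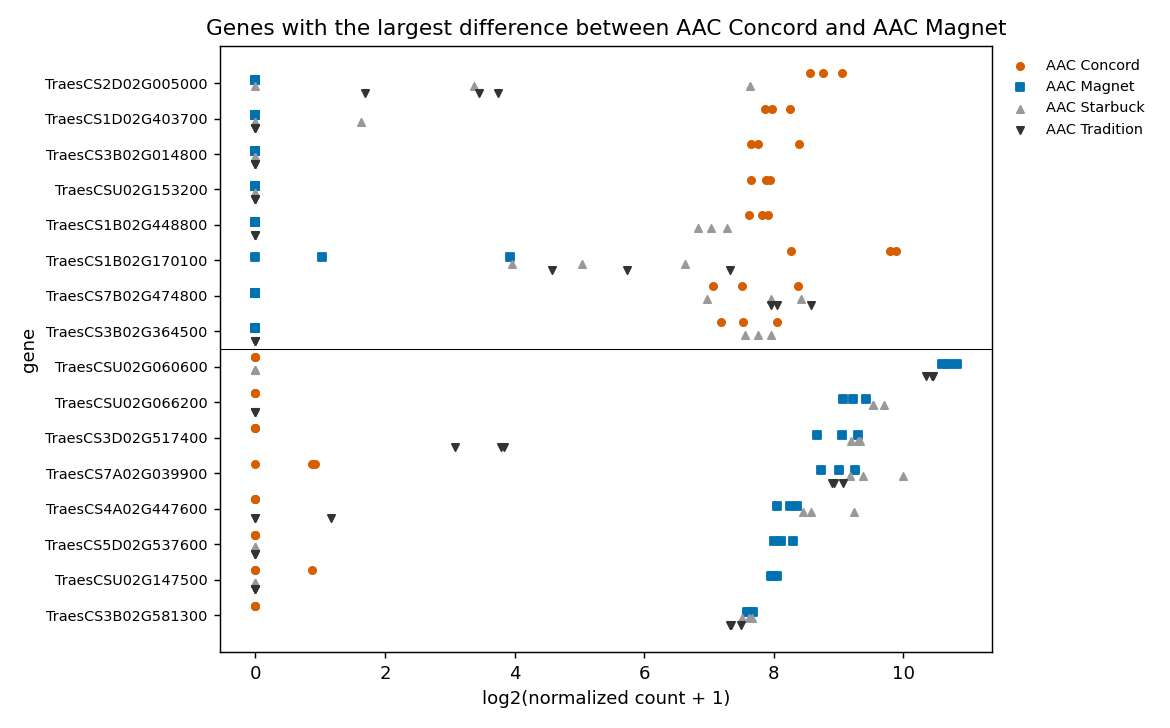
Levels of the 8 genes with the largest rise in AAC Concord (above the line) and the 8 with the largest fall (below it), as log2(normalized count + 1) on the horizontal axis, in the 3 libraries of each of the 4 varieties. AAC Concord and AAC Magnet lie at opposite sides by choice, and AAC Starbuck and AAC Tradition fall with either of them depending on the gene, as with TraesCSU02G060600, at 0 in AAC Starbuck and at 1300.0 to 1412 normalized counts in AAC Tradition.

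Abundant genes differed by smaller ratios. The 3 DEGs of highest mean among those higher in AAC Concord were TraesCS3A02G230000, TraesCS3B02G259300 and TraesCS2B02G342200. TraesCS3A02G230000 had 16626, 20091 and 16205 normalized counts in AAC Concord and 4012, 5760.0 and 4787 in AAC Magnet, a log2 fold change of 1.87 (standard error 0.19, limma adjusted p = 5.34e-05). AAC Starbuck and AAC Tradition lay between them, at 9335 to 14316 and 11670 to 13037. TraesCS3B02G259300 had 12224, 13678 and 9667 against 2290.1, 3637 and 2852 (2.03, standard error 0.22, adjusted p = 0.000104). TraesCS2B02G342200 had 9482, 11607 and 10084 against 3980 to 4279 (1.32, standard error 0.20, adjusted p = 0.00102). The varieties did not overlap in any of the 3 genes, and a length for comparing levels between genes was not used here.

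The 3 DEGs of highest mean among the lower ones had wider spreads. TraesCS5A02G391500 had 3755, 2645 and 4803 normalized counts in AAC Concord and 13231, 9647 and 11280 in AAC Magnet (log2 fold change -1.64, standard error 0.33, limma adjusted p = 0.00647). TraesCS5A02G210100 had 6131, 2891 and 5904 against 12623, 11006 and 11506 (-1.31, standard error 0.25, adjusted p = 0.00501), and without AAC Concord replicate 2 its log2 fold change was -0.96, inside the limit. TraesCS3D02G536300, which lies in the 3D block, had 3924, 3411 and 5814 against 10116, 10792 and 7970 (-1.16, standard error 0.29, adjusted p = 0.0214). That call was lost without AAC Concord replicate 1 (adjusted p = 0.0648), AAC Concord replicate 2 (0.0847), AAC Magnet replicate 1 (0.0713) or AAC Magnet replicate 2 (0.0716).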

How the data were processed

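RNA of the flag leaf was measured in 12 libraries, 3 of each variety. The authors sequenced read pairs (150 cycles), cleaned them with Trimmomatic (quality 20 over 5 bases, at least 75 bases kept), quantified them by Salmon on the RefSeq 2.1 reference and called differential expression by DESeq2. The signal values deposited by the authors are normalized counts, whose making is not given in the sources used here. Salmon shares reads among near-identical homoeologues and tandem copies, so values of such genes, the W1 genes included, are uncertain. Low values (up to 20 steps) were whole multiples of 1 read, within 0.05 of a step, in 87.3% to 91.3% of cases in the 6 libraries, too few to recover reads, so no count model was run and limma replaced it.

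Genes with at least 10 in at least 3 of the 6 libraries were tested with limma 3.58.1 (R 4.3.3) on log2(value + 1), all 12 libraries in a single fit with variety as the term (residual degrees of freedom 8, prior 3.11), and adjusted over all 40615 genes. An exact permutation test of 3 against 3 cannot go below p = 0.1 and was not used. Intervals are 95% intervals of that fit. Blocks joined overlapping windows, trimmed to their first and last DEG, and on-off genes and stretches were counted in Python 3.11.15 (numpy 2.4.6, pandas 2.3.3, scipy 1.17.1, matplotlib 3.10.9).

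Genes were named by a rule: detected wax genes, the 8 largest changes each way with a mean of at least 50 in the higher variety and no overlap, the 3 most abundant DEGs each way, the first, last and largest DEG of the 6 largest blocks, and the 3 on-off genes of highest mean each way. Not all of them are given with values. Members, lists and rules were chosen with earlier results of these data known. In simulated data all genes had the same dispersion, 0.0122, and the changed genes had a mean of at least 50. There the fit recovered 100 of 100 genes with a 3-fold change and 100 of 100 with an 8-fold change, and 5 unchanged genes were called in a run on 39371 genes. The simulation does not speak for changed genes of lower mean or for genes of wider spread. Alternatives were other pseudocounts (0.5 and 5), filters, scalings, a trend, a replicate block, the 6 libraries alone, other windows and each library left out.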

Additional observations from a re-analysis of the deposited data

How the results depend on the processing

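A mean of at least 50 normalized counts gave 1488 DEGs, 759 higher and 729 lower in AAC Concord, with 451 on A, 563 on B, 443 on D and 31 unplaced, 0 wax genes called (TraesCS6B02G255100 has a lower mean and was not tested) and 1 dense block. At least 10 in all 6 libraries, chosen after seeing the data, gave 1766 DEGs, 892 higher and 874 lower. Both filters test fewer genes, and the latter also drops those near 0 in 1 variety. No limit on the fold change gave 5950, 2937 higher and 3013 lower. Windows of 25 genes gave 31 blocks, windows of 100 gave 4, a limit of 30% DEGs gave 25 and one of 50% gave 5. On-off genes numbered 245 on in AAC Concord and 290 on in AAC Magnet with off at up to 3 reads, and 28 and 41 with on at 50 or more. The wax genes called were 2 without a filter (with TraesCS4B02G006800) and 2 under the replicate block.

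Whether the replicate numbers pair the libraries is not given by the labels, and 3 libraries of each variety are too few to settle it. Residual correlations of AAC Concord and AAC Magnet libraries of the same number were -0.07, 0.07 and 0.09. Those of other numbers were -0.22 to 0.16, so not every library correlated best with its own number. Among the 9 wax genes tested, replicate 3 was the lowest AAC Magnet library, or level with it, in each. It was the lowest AAC Concord library in all but TraesCS4D02G356300 and TraesCS2D02G016100. Whether a shared effect of the replicate number lies behind this was not tested. The replicate block gave 3685 DEGs, 1771 higher and 1914 lower, and brought in TraesCS2B02G006800 (3.16, adjusted p = 0.0427). Scaling to the same total gave 3869 DEGs with 38.4% higher in AAC Concord, against 47.8%.

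With 1 library left out in turn the DEGs ranged from 2894 to 3768, the higher ones from 1295 to 1710, the lower ones from 1492 to 2058, those on A from 876 to 1128, on B from 1183 to 1436, on D from 737 to 1113 and unplaced from 79 to 93, the blocks from 9 to 11, the wax genes called from 1 to 2, and the on-off genes from 142 to 151 on in AAC Concord and from 171 to 191 on in AAC Magnet. On 2D the balance of 53 higher and 139 lower became 81 and 59 without AAC Concord replicate 1. The remaining alternatives kept these counts within 1.5 times.

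Of 719 values of 49 named genes under the alternatives, 683 kept their direction and their side of the limits, 25 lost the call (in 6 genes), 2 gained it and 9 changed sign. The sign changes were in genes without a call. TraesCS1A02G150900 had -0.0124 at the same total, and with 1 library left out it ranged from -0.18 to 0.35, with -0.000125 without AAC Concord replicate 1, -0.05 without AAC Concord replicate 2 and the lowest without AAC Magnet replicate 3. TraesCS1B02G168500 ranged from -0.12 (without AAC Concord replicate 2) to 0.37, with -0.00721 without AAC Magnet replicate 3. TraesCS2D02G016100 ranged from -0.43 (without AAC Magnet replicate 3) to 0.56, with -0.17 without AAC Concord replicate 2. TraesCS4B02G363100 ranged from -0.0233 (without AAC Magnet replicate 3) to 0.25. The cause of these changes was not tested. The genes that changed sign averaged 60.9 to 476 normalized counts in AAC Concord and AAC Magnet, above the value of 3 reads. As a separate limit, AAC Magnet libraries are the shallower ones, and genes near 3 reads are limited by depth.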
